A study of Mus musculus with 4 samples.

Results

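The EGF receptor family and its ligands were examined as 10 genes, of which 6 encode ligands (Hbegf, Areg, Ereg, Btc, Tgfa and Nrg1), 3 encode receptors (Egfr, Erbb2 and Erbb3) and 1 encodes a feedback inhibitor (Errfi1). Members were found through the probes whose RefSeq transcript belongs to 1 of these genes, which gave 21 of the 41174 probes on the array and 10 of 18212 named genes. The study exposed Hepa1c1c7, a mouse hepatoma cell line, to 100 µM diethyl maleate (DEM) or to its solvent dimethyl sulfoxide (DMSO), each for 6 hours. There were 2 RNA samples from DEM cells and 2 from DMSO cells, and both groups are of this 1 cell line with no other treatment named. A label, on RNA extraction, mentions liver tissue; the rest name the cell line, which is followed here. The design text calls them independent but names no separate cultures, so the p-values rest on a spread between samples that may be technical only. DEM is an electrophile that binds thiols, and the series title names it as an activator of the transcription factor NRF2.

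EGF family ligands are made as membrane-bound precursors that metalloproteases of the ADAM family cut free. TGFA and AREG bind the EGF receptor, HBEGF, BTC and EREG bind both the EGF receptor and ERBB4, and NRG1 binds ERBB3 and ERBB4. ERBB2 has no known soluble ligand and serves as a dimer partner, ERBB3 has a weak kinase, and ERRFI1 (MIG6) binds the kinase domain of active receptors and blocks it. In the liver this system is known for its part in hepatocyte growth during regeneration.

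Levels are given as scaled intensity, the processed signal of a spot divided by the 75th percentile of its array and multiplied by 530.0, the geometric mean of those percentiles over the 4 arrays. The 75th percentiles lay between 513 and 547.5, the share of probes well above background between 50.4% and 52.6%, and 0 spots were saturated. The lowest level well above background on an array was 12.4 to 15.2. Of 16 hepatocyte markers 14 had a probe. Of these, 6 were well above background on at least 2 arrays (Alb, Afp, Apoa2, Apob, Trf and Foxa2), and 8 were not, among them Ttr, Apoa1, Fgb and Hnf4a. Limma called 0 of these 6, where 1.22% of all 15537 genes tested were called. At an unadjusted p under 0.05, 3 were higher (Afp, Apob and Foxa2) and 0 lower in DEM, against 9.02% and 10.2% of all genes. The largest change among the 6 was in Apob, which read 51.0 and 119.4 in DEM against 14.3 and 3.57 in DMSO, the last not well above background. The 14 hepatocyte markers had a summed level of 91804 and 91583 in DEM against 79193 and 72135 in DMSO. Most of each sum was Afp, at 67353 and 69019 in DEM against 58008 and 53673 in DMSO. Among markers of other cell types limma called 0 of 3 tested leukocyte, 0 of 6 fibroblast, 0 of 2 endothelial and 0 of 4 cholangiocyte genes. With an unadjusted p under 0.05, 2, 1, 0 and 1 of these were lower and 0 were higher, against 10.2% and 9.02% of all genes. The summed level was 63234 and 71802 in DEM against 73899 and 78510 in DMSO for the 9 fibroblast markers with a probe, and 73174 and 83745 in DEM against 88880 and 94415 in DMSO for the 6 cholangiocyte markers. Most of each cholangiocyte sum was Krt7, at 67373 and 79397 in DEM against 81291 and 88640 in DMSO. The part of these markers in the results was not tested. Since the samples are taken as 1 cell line, these markers are not read as amounts of different cell types. In bulk RNA, a change in the share of cells with a transcript and a change in RNA per cell cannot be told apart.

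Limma passed 0 of the 7 members that could be tested at an adjusted p under 0.05 (Benjamini-Hochberg over all 15537 genes), where 1.22% of all genes passed, 0.714% higher and 0.508% lower in DEM. Of the 15537, 10953 had a gene name, and the rest were each counted under their identifier on the array. All 7 tested members were well above background on all 4 arrays. An unadjusted p under 0.05 was met by 5 of the 7, against 19.2% of all genes. Of these, 1 was higher and 4 were lower in DEM, against 9.02% and 10.2% of all genes. The DEM values lay wholly below the DMSO values for 5 members and wholly above them for 1, where this held for 25.6% and 24.9% of all genes tested, 50.6% in all. These counts, and the medians that follow, use the brightest probe of each gene, and members were chosen with earlier results of these data known. The median log2 change was −0.42 over 4 ligands, −0.10 over 2 receptors and −0.51 for the inhibitor, against −0.01 over all genes. As the mean of a gene's probes the change was −0.23 for Tgfa, −0.44 for Nrg1, −0.29 for Egfr and −0.02 for Erbb2. The difference between ligands and receptors thus depends on the choice of probe. The ligand median stayed negative under the other scalings of the arrays, and that of the receptors turned to 0.04 under median scaling (each array set to its own median signal), a setting under which the median of all genes was 0.14. Median scaling raised the log2 change of every gene by 0.15, and scaling to spike-in controls lowered it by 0.07. Neither moved a gene relative to all genes.

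**Figure D1:**
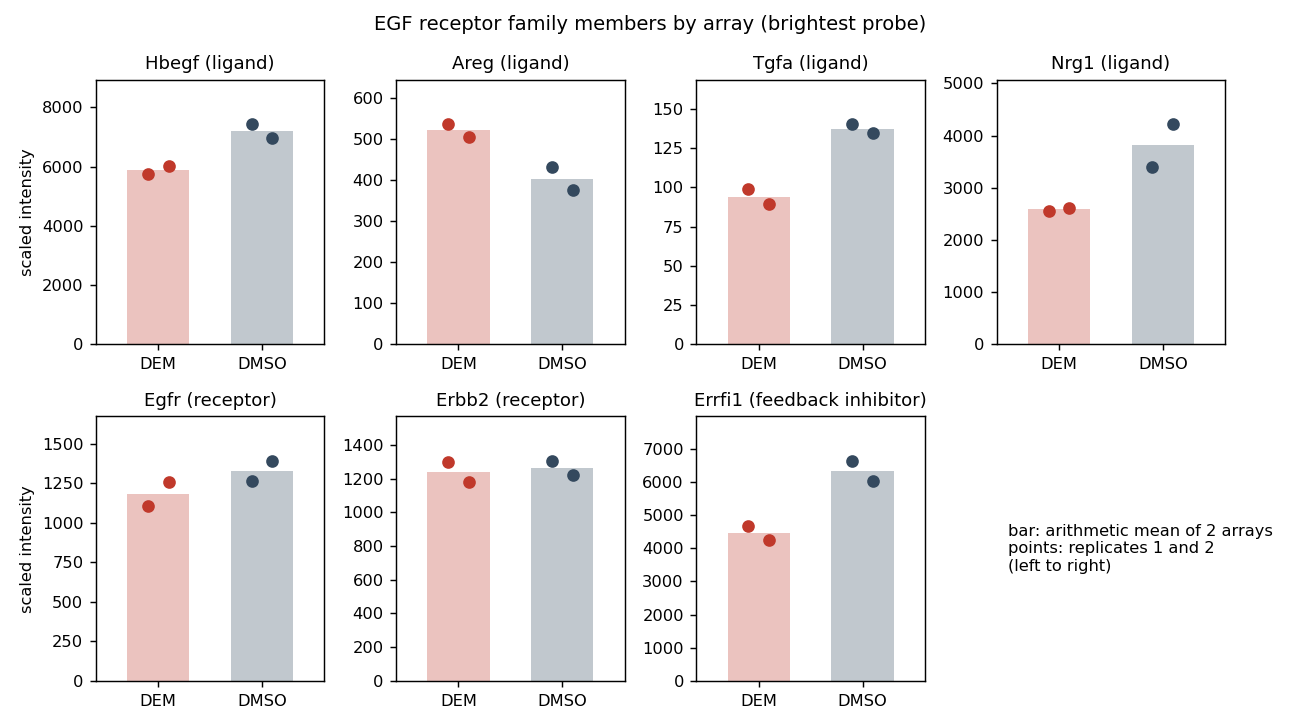
Scaled intensity (linear axis from 0) of the 7 tested members on each array, from the brightest probe of each gene; bars are arithmetic means of 2 arrays. Hbegf, Tgfa, Nrg1, Egfr and Errfi1 have both DEM arrays below both DMSO arrays, Areg has both above, and Erbb2 overlaps.

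Errfi1, the feedback inhibitor, had a scaled intensity of 4666 and 4236 on the DEM arrays, against 6645 and 6033 on the DMSO arrays. The groups did not overlap, and Errfi1 signal was 1.42-fold lower in DEM on average. The log2 change was −0.51 ± 0.11 (SE, n = 2 arrays per group, limma adjusted p = 0.115), and 10.6% of all genes tested had a larger change in size. Its limma adjusted p ran from 0.0159 to 0.375 over the alternatives and passed in 2 of them, at 0.0219 after normexp background correction and at 0.0159 when eBayes used an intensity trend with robust fitting, where 2.35% and 2.51% of all genes were called lower. Errfi1 has 1 probe on the array, printed in 1 spot, so no other probe bears on its value.

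Among the ligands, Nrg1, the neuregulin that binds ERBB3 and ERBB4, and Tgfa, which binds the EGF receptor, had the largest differences on the brightest probe of each gene, and for both the probes of the gene disagreed. As the mean of a gene's probes the Nrg1 change was −0.44 and the Tgfa change −0.23, with Tgfa smaller in size than those of Areg and Hbegf. The brightest Nrg1 probe gave 2546 and 2620 in DEM, against 3397 and 4225 in DMSO. Its log2 change was −0.55 ± 0.14 (SE, limma adjusted p = 0.148), 1.47-fold lower in DEM. The log2 change was −0.40 when DMSO replicate 2 was left out and −0.71 when DMSO replicate 1 was. With a trend and robust fitting the Nrg1 difference passed (limma adjusted p = 0.0286, range over the alternatives 0.0286 to 0.419).

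The other bright Nrg1 probe, A_52_P369761, was also wholly lower in DEM, and A_52_P52635 differed by less than its standard error. Probe A_52_P369761 read 1975 and 2108 in DEM against 3168 and 3575 in DMSO, a log2 change of −0.72 ± 0.11 (SE, limma adjusted p = 0.0716 over all probes). Probe A_52_P52635 read 464.6 and 486.8 in DEM against 493.1 and 494.9 in DMSO, a log2 change of −0.05 ± 0.09. That change was 0.09 under median scaling, where the median of all genes was 0.14. All 3 probes are assigned to the same RefSeq transcript in the files, although Nrg1 is a gene with many RefSeq transcripts. Which transcript forms each probe detects was not tested.

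Tgfa gave 98.7 and 89.5 in DEM, against 140.5 and 134.3 in DMSO, on its brightest probe, A_52_P555423, which is printed in 1 spot. The groups did not overlap, and the log2 change was −0.55 ± 0.10 (SE, limma adjusted p = 0.0897), 1.46-fold lower in DEM. The other Tgfa probe, A_51_P415126, is printed in 10 spots, and its averages were 88.8 and 80.9 in DEM against 82.4 and 76.7 in DMSO. These groups overlapped, and the log2 change had the opposite sign at 0.09 ± 0.10 (SE, limma adjusted p = 0.696 over all probes). The mean of both Tgfa probes had a limma adjusted p of 0.319 (range over the alternatives 0.0605 to 0.319).

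The spread of the 10 spots on an array shows how far a single spot can stray. For the Tgfa probe printed in 10 spots, the SD of log2 signal among spots of an array was 0.08 to 0.12. Over all probes printed 10 times with a level of 50 to 200, the median SD was 0.09. On DMSO replicate 1, 1 of the 10 Tgfa spots read 292 in processed signal, was flagged as an outlier by the scanner software and was left out.

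**Figure D2:**
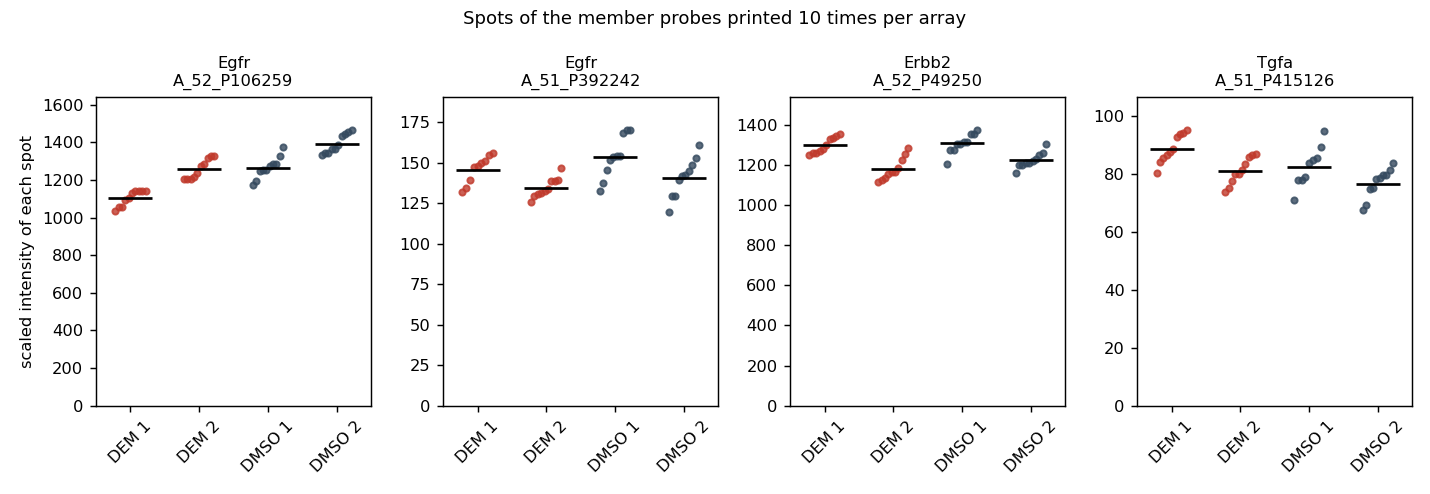
Scaled intensity (linear axis from 0) of every unflagged spot for the 4 member probes printed 10 times on each array; the line marks the geometric mean of the spots. The spots of an array scatter by 0.04 to 0.13 on the log2 scale (SD), and the DEM and DMSO arrays overlap for Erbb2, Tgfa and the Egfr probe A_51_P392242.

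Differences between probes of a gene were common on this array. Of 4172 named genes with at least 2 tested probes, 33.2% had log2 changes of both signs, and the median range between a gene's probes was 0.13. The range was 0.67 for Nrg1, 0.64 for Tgfa and 0.56 for Egfr, and only 3.02%, 3.28% and 4.89% of those genes had a larger one. Erbb2 had a range of 0.03.

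Hbegf, which encodes a heparin-binding ligand, read 5731 and 6023 in DEM, against 7442 and 6953 in DMSO. The groups did not overlap, and Hbegf was 1.22-fold lower in DEM on its 1 probe. The log2 change was −0.29 ± 0.09 (SE, limma adjusted p = 0.208), and 24.8% of all genes tested had a larger change in size. Under median scaling it was −0.15, with the median of all genes moved by 0.15 in the same fit.

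Areg, which encodes amphiregulin, was the 1 tested member with a positive log2 change. It read 537.2 and 504.9 in DEM, against 431.4 and 376.1 in DMSO, and both DEM arrays were above both DMSO arrays. Areg was 1.29-fold higher in DEM, with a log2 change of 0.37 ± 0.11 (SE, limma adjusted p = 0.193). The change ran from 0.27 without DMSO replicate 2 to 0.52 under median scaling, and it stayed positive and short of the threshold in all 15 alternatives. Its sign could turn only in the other scalings and with an array left out, since the remaining alternatives left the change as it was.

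The promoters of Areg and Errfi1, the member with the positive change and the inhibitor with a negative one, shared short sequence motifs. Sequences come from RefSeq on build GRCm38.p6, which held promoters for 6 of the 10 members in 7 windows, and the 250 bases before each start were searched on both strands for 4 motifs chosen with the results known. The cyclic AMP response element TGACGTCA, a palindrome bound by CREB and ATF factors, was in 2 of the 7 windows, 1 of Areg and 1 of Errfi1, and in 1.55% of 32851 promoter windows. The TATA box motif TATAAA was in the same 2 windows, and in 12.4% of all windows. Both motifs together were in 39 of 32851 windows, or 0.119%. Only the pair of motifs that had matched was counted, so this share does not measure how rare such a match is. The antioxidant response element core TGACNNNGC, bound by NRF2 with small MAF proteins, was in 0 of the 7 windows and in 10.2% of all, and the AP-1 motif TGANTCA was in 0 of the 7 and in 6.75% of all.

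The 150 bases before the start are shown for both promoters, each on the plus strand, with TGACGTCA and TATAAA in capitals, because these letters are what the windows share. The Errfi1 stretch is chr4:150854920-150855069 and the Areg stretch is chr5:91139449-91139598.
Errfi1: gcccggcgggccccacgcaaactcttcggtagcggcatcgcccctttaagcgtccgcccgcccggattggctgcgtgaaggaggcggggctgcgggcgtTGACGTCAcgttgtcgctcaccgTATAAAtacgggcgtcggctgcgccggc
Areg: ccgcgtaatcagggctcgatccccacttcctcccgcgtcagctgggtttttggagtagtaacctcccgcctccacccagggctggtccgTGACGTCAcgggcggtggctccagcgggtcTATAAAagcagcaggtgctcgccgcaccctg

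TGACGTCA began 51 bases before the start in Errfi1 and 61 bases before it in Areg, and TATAAA began 28 and 31 bases before it. Errfi1 has another promoter window in the same table, in which none of the 4 motifs was found. A match is a description of letters, and the binding of any factor was not measured here.

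Btc and Ereg, ligands of the EGF receptor and ERBB4, were not tested. Ereg read 3.24 and 3.19 in DEM against 3.46 and 2.91 in DMSO and was not well above background on any array. Btc read 20.1 and 12.8 in DEM against 9.65 and 7.05 in DMSO on its brighter probe, which was well above background on DEM replicate 1 alone. The other Btc probe read 3.14 and 3.04 in DEM against 5.99 and 3.48 in DMSO and was not well above background on any array.

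Among the receptors, Egfr and Erbb2 were well above background on every array and neither passed. Egfr read 1104 and 1258 in DEM, against 1266 and 1393 in DMSO, on a probe printed in 10 spots per array. The groups were separate by a narrow margin, and the log2 change was −0.17 ± 0.11 (SE, limma adjusted p = 0.493, unadjusted 95% interval −0.48 to 0.13). The Egfr change was −0.08 when DEM replicate 1 was left out and −0.27 when DEM replicate 2 was, as the mean of its 4 tested probes it was −0.29, and under median scaling it was −0.03.

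The 4 Egfr probes fall on both RefSeq transcripts that the files name for this gene. Probe A_51_P392242, on NM_007912 and printed in 10 spots, read 145.6 and 134.5 in DEM against 153.3 and 140.4 in DMSO, a log2 change of −0.07 ± 0.10 (SE) with overlapping groups. That change was 0.08 under median scaling, where the median of all genes was 0.14. The dim probe A_52_P674338, on NM_207655, read 39.8 and 34.8 in DEM against 70.3 and 47.1 in DMSO, a log2 change of −0.63 ± 0.22 (SE, limma adjusted p = 0.242 over all probes). Probe A_52_P56471, on NM_007912, gave −0.29 ± 0.13. None of the 4 passed.

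Erbb2 read 1297 and 1179 in DEM, against 1307 and 1223 in DMSO, on a probe printed in 10 spots, and the groups overlapped. The log2 change was −0.03 ± 0.10 (SE, limma adjusted p = 0.903), and the unadjusted 95% interval ran from −0.30 to 0.24. Its direction was not settled, since it turned to 0.04 without DEM replicate 2 and to 0.02 without DMSO replicate 1. Under median scaling it was 0.11, where the median of all genes was 0.14. The dimmer Erbb2 probe read 77.0 and 62.5 in DEM against 65.5 and 74.1 in DMSO, a log2 change of −0.01 that turned to 0.05 under quantile normalization and 0.14 under median scaling.

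Erbb3, the receptor that pairs with ERBB2, was not tested. It has 4 probes, and 3 of them read 2.82 to 3.49 on all 4 arrays, below the lowest level well above background. The remaining probe, A_51_P488243, read 101.6 and 3.18 in DEM against 11.5 and 2.49 in DMSO, so that its signal stood above background on DEM replicate 1 alone.

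**Figure D3:**
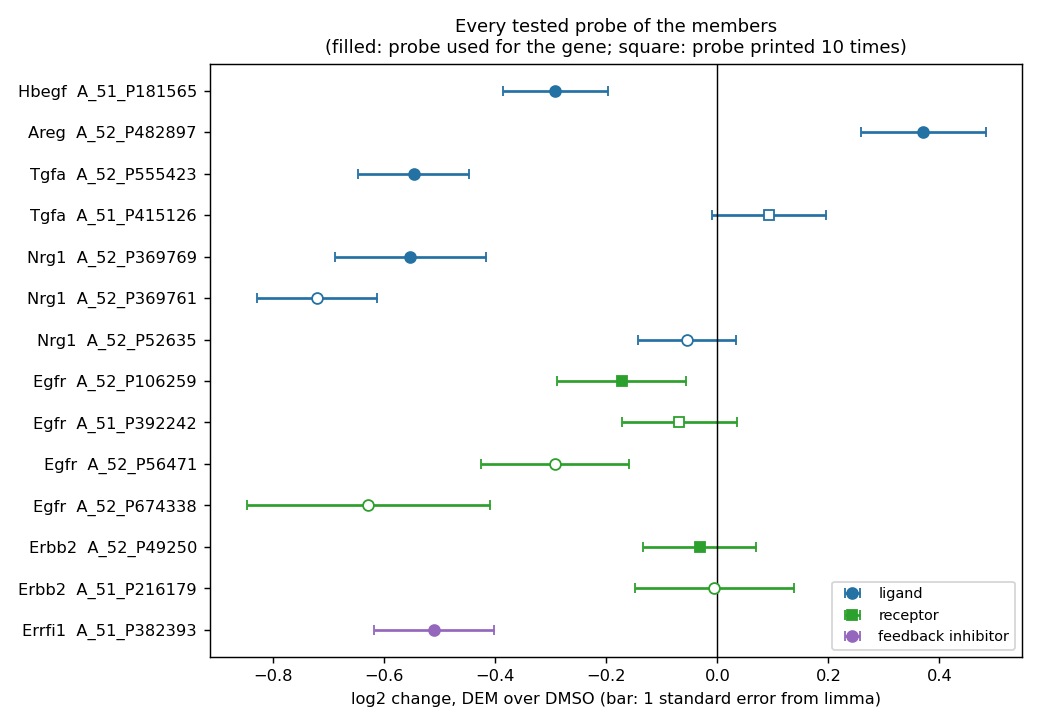
Log2 change (DEM over DMSO) of every tested probe of the 7 members, by role, with bars of 1 standard error from limma fitted over all probes. Areg and the Tgfa probe printed in 10 spots lie above 0, the remaining 12 probes lie below 0, and the probes of Nrg1, Tgfa and Egfr spread by 0.56 to 0.67.

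Other genes of the pathway were read from 8 lists chosen with earlier results of these data known. Outside the members, 79 genes were listed, 74 had a probe and 64 were tested, of which 0 rose and 1 fell over all genes tested, against 0.714% and 0.508% of all genes. At an unadjusted p under 0.05, 5 were higher and 10 were lower, against 9.02% and 10.2% of all genes. Their median log2 change was 0.07, against −0.01 over all genes.

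The gene that fell was Junb, an AP-1 subunit that growth factor signals induce through ERK. It read 12100.1 and 12045 in DEM against 23511 and 23761 in DMSO, and its log2 change was −0.97 ± 0.08 (SE, limma adjusted p = 0.0356). The Junb call was lost with no filter on dim probes (limma adjusted p = 0.202), a fit of 32288 genes in which 0 were called. It was also lost without any 1 of the 4 arrays, which leaves 1 array in a group and calls fewer genes in all. These losses therefore do not single out Junb, and its log2 change stayed between −0.98 and −0.96 in those fits. The 15 tested ERK-induced genes had a median of −0.08. An unadjusted p under 0.05 was met by 1 higher and 3 lower, against 9.02% and 10.2% of all genes. Of the 15 log2 changes, 7 were positive and 8 negative. Their median was 0.06 under median scaling, where the median of all genes was 0.14. Dusp6, a phosphatase of ERK named after its value was seen, read 3824 and 3774 in DEM against 6356 and 5961 in DMSO, a log2 change of −0.70 ± 0.09 (SE, limma adjusted p = 0.0572, range over the alternatives 0.00236 to 0.262). Fosl1, an AP-1 subunit likewise named after its value was seen, had the opposite sign, with 8606 and 9295 in DEM against 6326 and 5971 in DMSO. Its groups did not overlap, and its log2 change was 0.54 ± 0.09 (SE, limma adjusted p = 0.0876, range over the alternatives 0.00773 to 0.653).

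The largest change in size among these 64 genes was in Spry1. Spry1, a Sprouty protein that restrains RAS-ERK signalling, read 2168 and 2329 in DEM, against 4324 and 5341 in DMSO. Its log2 change was −1.10 ± 0.14 (SE, limma adjusted p = 0.0552, range over the alternatives 0.00118 to 0.250), and it passed in 5 of the 15 alternatives. The lowest of these, 0.00118, came from spike-in scaling. In that fit limma gave all 19 refitted genes the same SE of 0.27, so among them p followed the size of the change alone. Of the 5 Sprouty and Spred genes tested, 0 passed. An unadjusted p under 0.05 was met by 0 higher and 1 lower, against 9.02% and 10.2% of all genes. The median of the 5 genes was −0.11. Under median scaling it was 0.03, where the median of all genes was 0.14.

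The 9 tested feedback inhibitors of the receptors, Errfi1 included, had a median of −0.18, with 0 passing. An unadjusted p under 0.05 was met by 0 higher and 4 lower, against 9.02% and 10.2% of all genes. Of the 9 log2 changes, 2 were positive and 7 negative, and their median was negative under all 5 scalings. Socs5, a SOCS protein that promotes loss of the EGF receptor, read 622.4 and 646.4 in DEM against 852.8 and 868.8 in DMSO. Its log2 change was −0.44 ± 0.08 (SE, limma adjusted p = 0.103, range over the alternatives 0.0378 to 0.534). Lrig1, a membrane protein that lowers receptor levels and was named after its value was seen, read 406.6 and 363.4 in DEM against 479.2 and 519.7 in DMSO, a log2 change of −0.38 ± 0.11 (SE, limma adjusted p = 0.179) that was −0.23 under median scaling.

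Of the ligands that are not members, Egf and Epgn were tested and neither passed. Epgn, which encodes epigen, read 21.9 and 30.4 in DEM against 13.5 and 24.4 in DMSO, and the groups overlapped (log2 change 0.51 ± 0.34, SE, limma adjusted p = 0.499). The Epgn change was 0.08 when DMSO replicate 1 was left out and 0.93 when DMSO replicate 2 was, and after normexp it was 0.09. Egf, the ligand that names the family, was dim, at 27.1 and 25.1 in DEM against 29.1 and 30.3 in DMSO. Its log2 change was −0.19 ± 0.09 (SE), and with trended robust eBayes the SE was 0.23. Under median scaling the change was −0.04, where the median of all genes was 0.14. Erbb4, the remaining receptor, read 2.55 to 3.68 on its brightest probe and was not tested.

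The 8 tested genes of ligand shedding had a median of 0.13, with 0 passing. An unadjusted p under 0.05 was met by 2 higher and 1 lower, against 9.02% and 10.2% of all genes. Timp3, which inhibits the sheddase ADAM17, read 5305 and 5571 in DEM against 6924 and 8151 in DMSO, a log2 change of −0.47 ± 0.12 (SE, limma adjusted p = 0.151, range over the alternatives 0.0295 to 0.471). Adam17 itself had a log2 change of 0.02 ± 0.10 with overlapping groups, and it turned to −0.05 under spike-in scaling.

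Of the 16 adaptors and RAS-ERK kinases tested, 0 passed. An unadjusted p under 0.05 was met by 1 higher and 0 lower, against 9.02% and 10.2% of all genes. The median of the 16 was 0.13, with 15 positive values. Under spike-in scaling the median was 0.05 with 12 positive values. Shc1, an adaptor that binds active receptors, read 860.6 and 746.8 in DEM against 686.4 and 576.5 in DMSO (log2 change 0.35 ± 0.14, SE, limma adjusted p = 0.277), and its change was 0.22 after normexp and also without DMSO replicate 2. In the PI3K and AKT branch 10 genes were tested, with 0 passing and a median of 0.09. At an unadjusted p under 0.05, 1 was higher and 2 were lower, against 9.02% and 10.2% of all genes. Pik3r1, a regulatory subunit of PI3K, read 98.7 and 111.4 in DEM against 226.1 and 138.4 in DMSO and was highest on DMSO replicate 1. Its log2 change was −0.75 ± 0.26 (SE, limma adjusted p = 0.234), and it was −0.40 without DMSO replicate 1, −0.39 after normexp and −0.38 as the mean of the gene's probes.

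**Figure D4:**
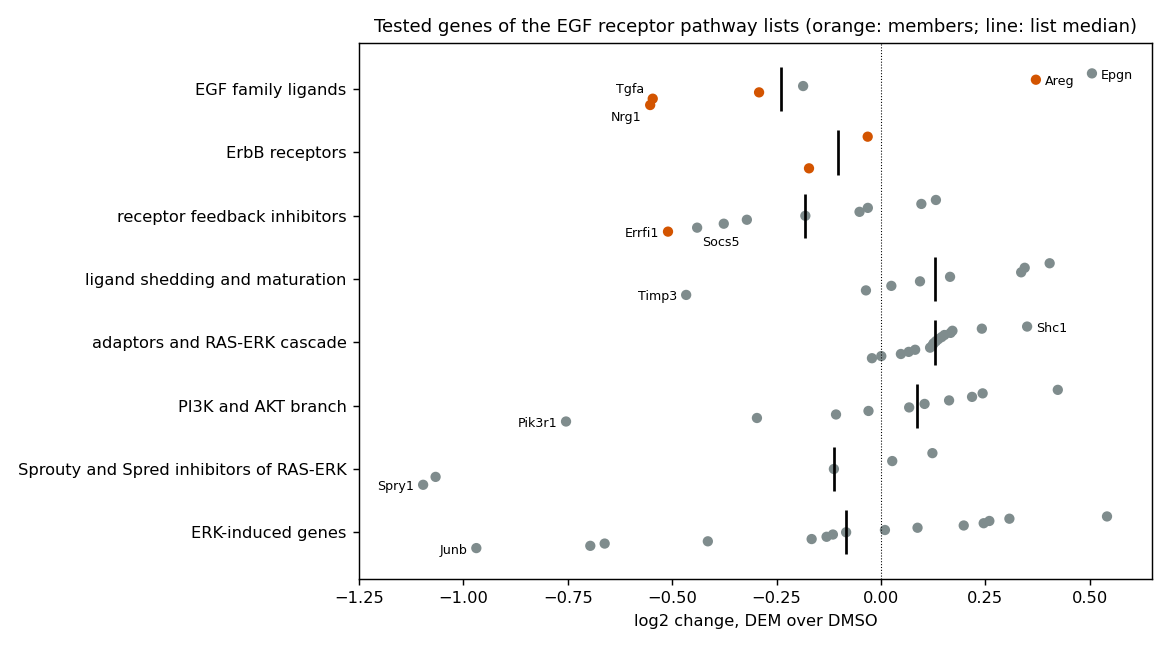
Log2 change (DEM over DMSO) of every tested gene in the 8 pathway lists; orange points are members, grey points other genes, and each vertical line is the median of its list. Medians run from −0.24 for the ligands to 0.13 for ligand shedding and for the adaptors and RAS-ERK cascade, and Junb is the 1 gene that passed.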

How the data were processed

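Per the labels' protocols, amplified RNA carried the dye Cy3 alone, with 1 array per sample. Per the file headers, the deposited intensity values are processed signals from Agilent Feature Extraction 10.7.3.1, with its background subtraction, on a design annotated on mm9, and all 4 arrays share 1 slide and 1 scan time. The authors' deposited value table held the same intensity for all 45018 spots of each array. The deposited files' own flags for saturated spots, outlier spots and spots well above background were used as given.

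From these, log2 signal minus the 75th percentile over 43379 non-control spots was taken, outlier spots were dropped and spots of a probe averaged. A probe was tested if well above background on at least 2 arrays. Names came from a RefSeq table of GRCm38.p6 (26676 of 41174 probes), and the brightest tested probe stood for a gene. DEM and DMSO were compared with limma 3.58.1 in R 4.3.3 (lmFit, eBayes, Benjamini-Hochberg over 15537 genes, threshold 0.05). The fit was also run on data simulated from its own model, which checks the code and cannot show how the fit does on these arrays. All members are named, with each called gene of a pathway list or, where none was called, its largest change. Dusp6, Fosl1, Lrig1, Egf, Adam17 and Erbb4 were given outside this rule. Members and lists were chosen with earlier results of these data known. Alternatives were normexp (offset 50, on median spot signals), quantile, median and spike-in scaling, the value table, 2 other filters, 2 probe summaries, a trended robust eBayes, a replicate block and leaving out each array. With 2 arrays per group, the number of arrays limits the precision, and an exact two-sided permutation test cannot go below p = 0.333, so none is given.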

Additional observations from a re-analysis of the deposited data

Results flagged for a closer look

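Btc and Erbb3, members outside the test, each had a probe with signal well above background on 1 DEM array and on 0 DMSO arrays. The Btc probe A_52_P672689 read 20.1 on DEM replicate 1 and 12.8 on DEM replicate 2, against 9.65 and 7.05 in DMSO. The ratio of its mean DEM reading to a DMSO mean raised to the background level was 1.25. The Erbb3 probe A_51_P488243 read 101.6 on DEM replicate 1 and 3.18 on DEM replicate 2, against 11.5 and 2.49 in DMSO, and the same ratio was 1.39. For each ratio, a DMSO array was given the higher of the probe's own signal and the lowest level well above background on that array. Neither ratio is a lower bound, since neither probe was well above background on DEM replicate 2. The other 3 Erbb3 probes and the other Btc probe were not well above background on any array. The Erbb3 groups overlapped, since DEM replicate 2 lay below DMSO replicate 1, and the Erbb3 ratio rests on the 1 spot of DEM replicate 1. Without DEM replicate 1 neither gene was well above background on any array, and no fold can be given. Neither difference was tested.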

How the results depend on the processing

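The 19 tested genes of the family and its pathway given with values (7 members and 12 others) were refitted under 15 alternatives, except that the filter on all 4 arrays left out Epgn. Of these 284 values, 257 kept their direction and side of the threshold, 16 newly passed, 5 lost the call, all of Junb, and 6 turned sign, 3 of Adam17 (−0.050 under spike-in scaling; with an array left out it ran from −0.040 to 0.090, negative when DEM replicate 1, at −0.033, or DMSO replicate 1 was dropped) and 3 of Erbb2 (0.11 under median scaling; with an array left out it ran from −0.10 to 0.036, positive when DEM replicate 2 or DMSO replicate 1 was dropped). Median scaling raised every log2 change by 0.15 and spike-in scaling lowered every one by 0.07. The cause of the turns was not tested. The value table, the 2 other filters, each probe on its own, the trended robust eBayes and the replicate block left these log2 changes as they were. No sign could turn there. Junb was the 1 of these genes called in the main fit, so only its call could be lost. Limma called 0 members higher under every alternative, and called 1 lower after normexp and 2 with trended robust eBayes. Over all genes, 111 were called higher and 79 lower, and the counts were 435 and 365 after normexp, 64 and 37 after quantile normalization, 404 and 163 under median scaling, 198 and 374 under spike-in scaling, 230 and 196 with the filter on all 4 arrays, and 492 and 390 with trended robust eBayes. With no filter, which raised the genes tested to 32288, limma called 0 and 0 (1246 and 1919 at an unadjusted p under 0.05). Leaving out 1 array gave 0 to 69 higher and 0 to 52 lower, with 0 and 0 when DMSO replicate 1 (983 and 1130 at an unadjusted p under 0.05) or DMSO replicate 2 (844 and 1171) was dropped, 69 and 52 when DEM replicate 1 was, and 64 and 38 when DEM replicate 2 was. Rises were 58.4% of calls, against 71.3% under median and 34.6% under spike-in scaling. In the spike-in fit limma gave all 19 genes the same SE of 0.27, so among them its p followed the size of the change alone. Shared replicate numbers are not stated to pair the samples, and deviations of same-numbered samples correlated at 0.138 across genes. With the replicate block, 74 genes were higher and 69 lower, and 0 members passed. The value table changed nothing. Ereg was not well above background on any array, and Btc and Erbb3 on DEM replicate 1 alone, which limits what their levels can show.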
